A study of Mus musculus with 100 samples.

Results

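PGC1b, the coactivator encoded by Ppargc1b, was mapped by chromatin immunoprecipitation and sequencing in mouse bone marrow-derived macrophages, and 15243 of its 45675 peaks (33.4%) had no NCoR peak and no HDAC3 peak beside them. These peaks were chosen by position alone: a PGC1b peak was taken when no peak centre in the NCoR table and none in the HDAC3 table lay within 1000 bp of its own centre. The other 30432 PGC1b peaks (66.6%) had a partner peak, and 1328 of them had HDAC3 only and 2083 NCoR only. The choice used no tag count, but NCoR and HDAC3 tags were counted only inside their own peaks, so that "without" means that no peak was listed, not that no corepressor was bound.

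Coactivators of the PGC1 family do not bind DNA themselves. They are brought to enhancers and promoters by transcription factors, gather acetyltransferases there, and are best known for raising the transcription of mitochondrial genes. NCoR is a corepressor scaffold that carries the histone deacetylase HDAC3, and the study asked how TLR4 signaling brings NCoR, HDAC3 and PGC1b together at genes that it activates.

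Wild type C57BL/6 macrophages, grown from the marrow of young adult mice, received vehicle (Veh) or Kdo2 lipid A (KLA), an agonist of TLR4, with KLA for 6 h where a time is stated. The labels give vehicle as 6 h in some groups, as 0 h for p300 and with no time in others. A second PGC1b experiment added DMSO to Veh and to KLA and an ERK inhibitor (ERKi) to KLA, with no time in its labels. The factors p65 (NFκB), p300 (an acetyltransferase), PU.1 (a macrophage lineage factor), ERK1 (a kinase) and Fosl2 (a subunit of AP-1) were profiled in wild type cells with Veh and KLA. Acetylation of histone H3 at lysine 27 (H3K27ac), which active enhancers and promoters carry, was profiled with Veh and KLA in NCoR flox/flox cells (WT) and in NCoR flox/flox, LysMCre cells (NKO). It was also profiled in PGC1b flox/flox cells without (Pgc1b_flox) and with LysMCre (Pgc1b_flox_Cre), and in wild type cells with DMSO and Veh, DMSO and KLA, or KLA with the HDAC3 inhibitor RGFP966. LysMCre deletes in myeloid cells, the floxed controls carry no Cre, and H3K27ac does not show how much of either gene was deleted. Every group had 2 libraries, described as biological replicates, and the p-values measure the spread between these libraries.

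Library totals ran from 9.16 to 21.5 M tags for the PGC1b peaks, from 5.07 to 12.3 M in the second PGC1b experiment, from 4.30 to 19.5 M for the 5 factors and from 11.5 to 19.6 M for H3K27ac. The libraries behind the choice of sites had 8.37 to 14.5 M for NCoR and 5.69 to 18.1 M for HDAC3. HDAC3 KLA replicate 2 was the shallowest of these, at 5.69 M. The part of peaks missed for depth in the choice was not tested. Values below are tags per 10 M tags of the library. Of 8 macrophage marker genes, all had an H3K27ac region in the Pgc1b flox table, the strongest of Spi1 at 688 to 961 over its 8 libraries. In that table none of the T cell, B cell, neutrophil and fibroblast markers listed had a region, and the epithelial markers Cdh1 (36.0 to 94.3) and Epcam (5.06 to 14.3) did. In the WT and NKO table the T cell marker Cd3d had a region of 26 to 54.9 tags, beside the macrophage markers Cd68 (19.3 to 46.5) and Lyz2 (21.5 to 55.1), and the neutrophil marker Mpo had one of 0.628 on average. The part of such cells in any result was not tested. The strongest H3K27ac region of Ppargc1b held 20.2 to 51.6 tags.

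The DNA under these peaks is shown first, because its letters set them apart from the other PGC1b peaks. CTCF is a zinc finger protein that binds a long, well known recognition sequence and marks the borders of chromatin loops, and many of its sites in the mouse genome lie in B2 elements, short repeats copied by retrotransposition. The letters CCA, AG and GGC in that order, with 2 free bases between each, are the best conserved stretch of that recognition sequence and were found on either strand within 200 bp around the centre in 5499 peaks without NCoR or HDAC3 (36.1%), in 1231 of the other peaks (4.05%) and in 14.7% of all PGC1b peaks. The following lines give these letters, in capitals, in 10 of the strongest such peaks by PGC1b tags, named by the nearest listed gene and read 5′ to 3′ from the mm10 strand stated, with 10 bases on either side.
Tmem170b (chr13:41572247-41572278, minus strand): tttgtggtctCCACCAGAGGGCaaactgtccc
Rpl5 (chr5:107921542-107921573, plus strand): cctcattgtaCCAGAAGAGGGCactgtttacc
Hbp1 (chr12:31967725-31967756, plus strand): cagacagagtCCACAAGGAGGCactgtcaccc
Fas (chr19:34334478-34334509, plus strand): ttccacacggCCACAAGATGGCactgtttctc
Plau (chr14:20873504-20873535, minus strand): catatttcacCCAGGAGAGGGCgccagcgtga
1110002J07Rik (chr10:66909375-66909406, plus strand): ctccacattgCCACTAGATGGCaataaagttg
Tex2 (chr11:106648461-106648492, plus strand): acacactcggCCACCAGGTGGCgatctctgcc
F830045P16Rik (chr2:129502807-129502838, plus strand): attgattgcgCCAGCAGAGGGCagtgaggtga
Ccl9 (chr11:83556525-83556556, plus strand): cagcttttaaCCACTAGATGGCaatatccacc
Arhgap22 (chr14:33213905-33213936, plus strand): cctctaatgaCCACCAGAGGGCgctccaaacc

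The same letters stood in peaks annotated to elements of the B2 family. Of the 1821 such peaks without NCoR or HDAC3, 1455 (79.9%) held them, against 30.1% of the 13415 peaks outside B2 elements. The letters went with B2 elements among the other PGC1b peaks too. There, B2 elements made up 16% of the 1231 peaks with the letters and 0.569% of the 29198 without them. The link is therefore not particular to the peaks without NCoR or HDAC3. These 4 B2 peaks without NCoR or HDAC3, the strongest in PGC1b tags, are shown to let the copies be compared.
Cd5l (chr3:87323955-87323986, plus strand): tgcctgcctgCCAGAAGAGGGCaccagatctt
Eno1 (chr4:150219699-150219730, minus strand): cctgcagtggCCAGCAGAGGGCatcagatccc
Lsm2 (chr17:34980783-34980814, minus strand): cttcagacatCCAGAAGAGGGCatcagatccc
Car6 (chr4:150194106-150194137, plus strand): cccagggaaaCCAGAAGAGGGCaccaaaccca

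For one peak the whole window of 200 bp is given, to show where the letters sit in it. It is the strongest peak with these letters, upstream of Tmem170b, and the capitals are the match read on the plus strand.
Tmem170b (chr13:41572113-41572312, plus strand): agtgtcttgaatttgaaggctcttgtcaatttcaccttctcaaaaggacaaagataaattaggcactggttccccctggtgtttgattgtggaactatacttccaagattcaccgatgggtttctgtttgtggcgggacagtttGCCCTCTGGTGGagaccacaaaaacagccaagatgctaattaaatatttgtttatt

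These CTCF-type letters were chosen after a shorter form had been counted and its values seen. The shorter form AGGGGGC was held by 13.5% of the peaks without NCoR or HDAC3 and by 4.26% of the others, and a longer match with G at its last free positions contains it. The CTCF-type letters lay near the centre of the peaks, at a median offset of 15 bp. Every word of 8 letters was also counted in the same windows, with no motif in mind. The word with the largest excess was AGAGGGCA, in 15.2% of the peaks without NCoR or HDAC3 and 2.60% of the others. It was followed by AAGAGGGC (11.2% and 1.69%). Both words also stand in the B2 copies at Cd5l and Lsm2 above. This count is not independent of the CTCF-type letters, and the part of B2 elements in it was not tested. The word most depleted was AGAGGAAG (4.38% and 13.1%). CTCF was not profiled in the tables used here, and a match of letters is a description and not a measured site.

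Letters of macrophage and inflammatory factors were rarer in these peaks. The AP-1 letters TGANTCA were held by 8.03% of them and by 22.2% of the other peaks (17.5% of all). The PU.1 letters GAGGAAGT stood in 3.26% and 11.4%, the C/EBP letters TTGCNNAA in 8.79% and 16.6%, the interferon response letters GAAANNGAA in 6.87% and 11.5%, and the NFκB letters GGAANTTCC in 0.433% and 1.5%. The letters TCAAGGTCA of the estrogen-related receptors, which PGC1 proteins coactivate, were rare in both (0.335% and 0.312%). The letters CCAATNNG of NFY (4.92% and 5.18%) also stood at similar shares. GC content was close, with medians of 47.5% and 47.0%, and so was the share of windows with 6 or more CpG (17.1% and 18.0%).

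The difference in letters held at every level of PGC1b. When all peaks were ranked by their mean PGC1b tags and cut into 10 equal classes, the share with the CTCF-type letters rose from 23.1% in the weakest class to 44.9% in the strongest for the peaks without NCoR or HDAC3. For the other peaks it went from 2.04% to 9.38%. The AP-1 letters ran the other way in the peaks without NCoR or HDAC3, from 10.1% to 5.19%, and from 15.3% to 24.9% in the other peaks.

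**Figure D1:**
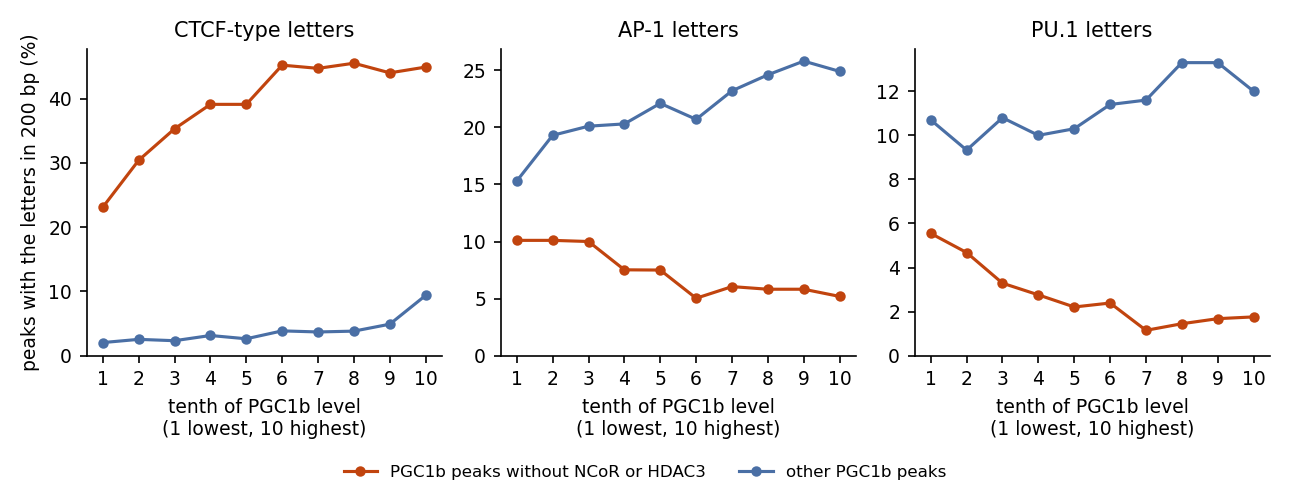
Share of PGC1b peaks (%) that hold the CTCF-type, AP-1 or PU.1 letters in 200 bp around the centre, by class of mean PGC1b level (1 weakest, 10 strongest; x axis), with the peaks without NCoR or HDAC3 in orange and the other PGC1b peaks in blue. The CTCF-type share is higher in the orange peaks in each class (23.1% against 2.04% in the weakest and 44.9% against 9.38% in the strongest), and the AP-1 and PU.1 shares are lower in each class. The y axes differ between panels.

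Fewer of the peaks without NCoR or HDAC3 lay at promoters. Promoters held 1060 of them (6.95%) against 3814 of the others (12.5%), and 87.6% against 80.7% were distal, over 2 kb from a transcription start site. Intergenic positions made up 44.6% and 39.6%, introns 41.9% and 43.8%, and transcription termination sites 2.86% and 1.44%. B2 elements were the annotation with the largest difference, at 11.9% against 1.19%. LTR elements (3.69% and 7.17%) and LINE elements (2.06% and 5.16%) were less frequent among them. The median distance to a start site was 17.2 kb against 16 kb, but fewer lay over 50 kb away (19.6% against 22.3%), and the median distance to the nearest NCoR or HDAC3 peak was 9.69 kb (quartiles 4.03 and 22.3 kb). Just outside the limit, the 147 peaks between 1000 and 1100 bp from a partner peak had a median of 22.2 PGC1b tags, and the 193 peaks between 900 and 1000 bp had 18.5.

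They were also weaker on average, although many were strong. Median PGC1b tags were 17.6 and 18.1 in the Veh libraries and 18.6 and 15.4 in the KLA libraries. In the other peaks they were 22.3 and 23.2 with Veh and 33.9 and 25.2 with KLA. The peaks without NCoR or HDAC3 therefore had lower medians in each of the 4 libraries, with log2 ratios of -0.34 and -0.36 with Veh and of -0.87 and -0.70 with KLA. They held 30.9% and 30.5% of all PGC1b peak tags with Veh and 23.4% and 25.9% with KLA. With 2 libraries against 2, an exact two-sided permutation test cannot give a p below 0.333, so these values are given as levels. Among the strongest 10% of all PGC1b peaks 1136 (24.9%) had no NCoR or HDAC3 peak, and among the strongest 457 peaks 135 did (29.5%).

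The 8 strongest peaks had 179 to 218 tags in the mean, and 4 of them held the CTCF-type letters. The strongest lay in Malat1, a nuclear noncoding RNA (chr19:5800410-5801355), with 284 and 314 tags with Veh and 106 and 170 with KLA. Both KLA values were below both Veh values, and this was the only one of the 8 that was called (log2 fold change -1.10, SE 0.25, edgeR adjusted p = 0.00352). The peak upstream of Tmem170b shown above had 208 and 231 tags with Veh and 274 and 158 with KLA, and its groups overlapped (log2 -0.04, SE 0.26). A peak upstream of Ccr1l1, a chemokine receptor gene (chr9:123986235-123986458), had 213 and 241 tags with Veh and 215 and 152 with KLA (log2 -0.32, SE 0.24, edgeR adjusted p = 0.364). The Rpl5 peak, which carries the second sequence above and lies in an intron of another gene, had 181 and 198 with Veh and 288 and 129 with KLA. The remaining 4 were assigned to Lrrc74a, Hbp1 (an HMG-box repressor), Rfng (a glycosyltransferase that modifies Notch) and Fas (a death receptor), with log2 fold changes of -0.17 to 0.47, none called.

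In the second PGC1b experiment, 10039 of the peaks (65.9%) had a PGC1b peak within 500 bp, against 84.4% of the others. The share rose with level: 98.4% of the peaks above the median PGC1b level were found again. At 10070 second-experiment peaks assigned to them, the medians were 32.5 and 39.3 tags with DMSO and Veh, 41.4 and 40.2 with DMSO and KLA and 37.5 and 36.2 with ERKi and KLA. At 26361 second-experiment peaks assigned to the other PGC1b peaks they were 30.9 and 39.3, then 55.3 and 52.1, then 45.4 and 44.0. Among the sites found again, the 2 kinds of peak had nearly the same medians with Veh. With KLA those without NCoR or HDAC3 were lower in both libraries. Being found again depended on level. In the weakest 10% of all PGC1b peaks, those without NCoR or HDAC3 made up 69.9%, and 16.4% of them were found again. These medians therefore leave out more of the weak sites without NCoR or HDAC3, and do not compare the 2 kinds as a whole.

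Most of these sites carried none of the other factors. Within 500 bp, 10571 (69.3%) had no peak of p65, p300, PU.1, ERK1 or Fosl2, against 953 of the other peaks (3.13%). All 5 factors stood at 27 of them (0.177%) and at 12490 of the others (41.0%). p300 was the most frequent, at 15.3% against 89.1%. PU.1 stood at 14.2% against 74.1%, p65 at 9.30% against 82.5%, ERK1 at 6.49% against 61.6% and Fosl2 at 5.03% against 68.0%. The difference was as wide at distal peaks, where 72.2% and 2.76% had none of the 5. The peaks with the CTCF-type letters had a factor in 17.1% of cases, and those without these letters in 38.3%. A later NCoR table, made with the ERK inhibitor, had a peak at 230 of the sites (1.51%) and at 92.6% of the others. Its 228 peaks there were low, with medians of 13.1 to 16.9 tags over 6 libraries against 25 to 65.9 at the other PGC1b peaks. This table shares its Veh and KLA libraries with the table that chose the sites.

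**Figure D2:**
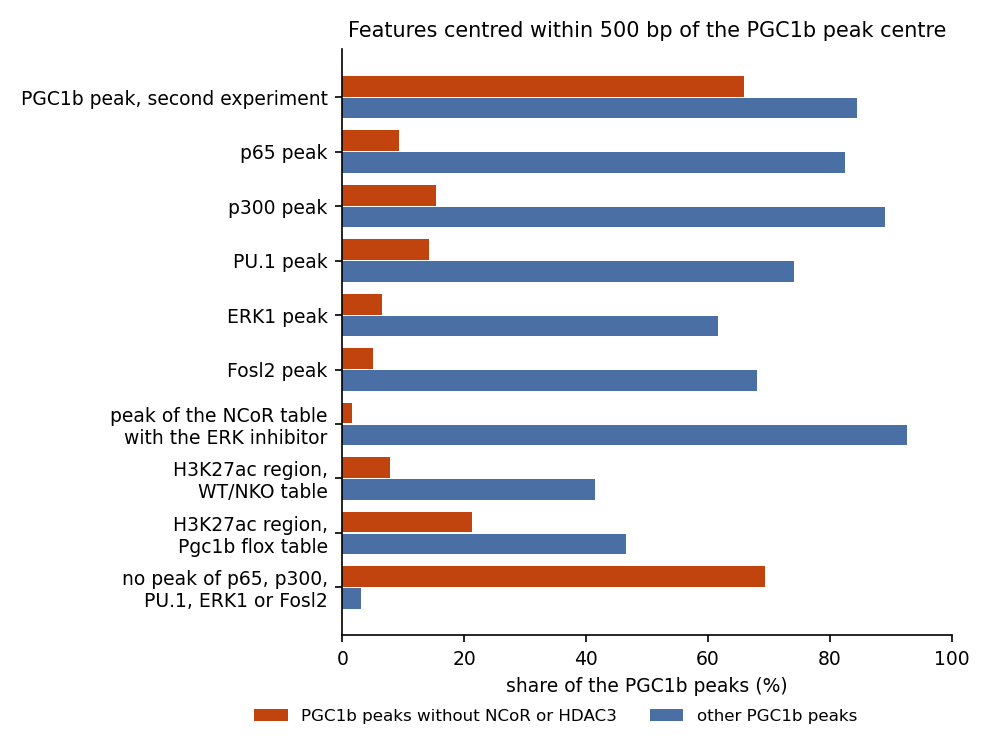
Share of PGC1b peaks (%, x axis) with a peak or region of each kind centred within 500 bp, for the 15243 peaks without NCoR or HDAC3 (orange) and the 30432 other PGC1b peaks (blue). The orange bars are shorter for each factor (15.3% against 89.1% for p300) and longer only for peaks with none of the 5 factors (69.3% against 3.13%).

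The response of PGC1b to KLA was then compared. Peaks were tested by edgeR's quasi-likelihood method, with the library totals as sizes, and called at a Benjamini-Hochberg adjusted p under 0.05 with more than a 2-fold change. Of all 45675 PGC1b peaks, KLA raised 16.4% and lowered 6.35% by this rule. Of the 15243 peaks without NCoR or HDAC3, 770 (5.05%) rose and 1085 (7.12%) fell, against 6737 (22.1%) and 1814 (5.96%) of the other peaks. Their median log2 fold change was -0.24, a difference of -0.30 from the median of all peaks, and that of the others was 0.24. Scaling by TMM, a trimmed mean over the peaks, moved the median of all peaks from 0.06 to -0.05 and gave 749 higher and 1577 lower. The count of 1855 calls depended on single libraries: it was 493 without Veh replicate 1, 440 without Veh replicate 2, 2856 without KLA replicate 1 and 3621 without KLA replicate 2. More fell than rose in the full set, but without Veh replicate 1 (281 higher, 212 lower) or Veh replicate 2 (296 and 144) more rose. In each of these settings the share that rose was smaller than in the other peaks and the median lower.

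The second experiment gave the same order of rises and of medians on separate libraries, but not the same order of falls. With DMSO and KLA against DMSO and Veh, 16.4% of its 53474 peaks were called higher and 1.23% lower, with a median log2 fold change of 0.45. Of the 10070 peaks assigned to sites without NCoR or HDAC3, 402 (3.99%) rose and 120 (1.19%) fell, against 5642 (21.4%) and 348 (1.32%) of the 26361 at other sites. TMM reversed the balance to 111 higher and 343 lower, and the medians differed from that of the table by -0.29 and 0.08. The 522 calls became 209 without DMSO Veh replicate 1, 218 without DMSO Veh replicate 2 and 330 without DMSO KLA replicate 1. Of the 770 peaks that rose in the first experiment, 377 had a second-experiment peak, 155 of these rose again and 0 fell. Of the 1085 that fell, 670 had one, 48 of these fell again and 0 rose, and 563 had a negative log2 fold change.

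**Figure D3:**
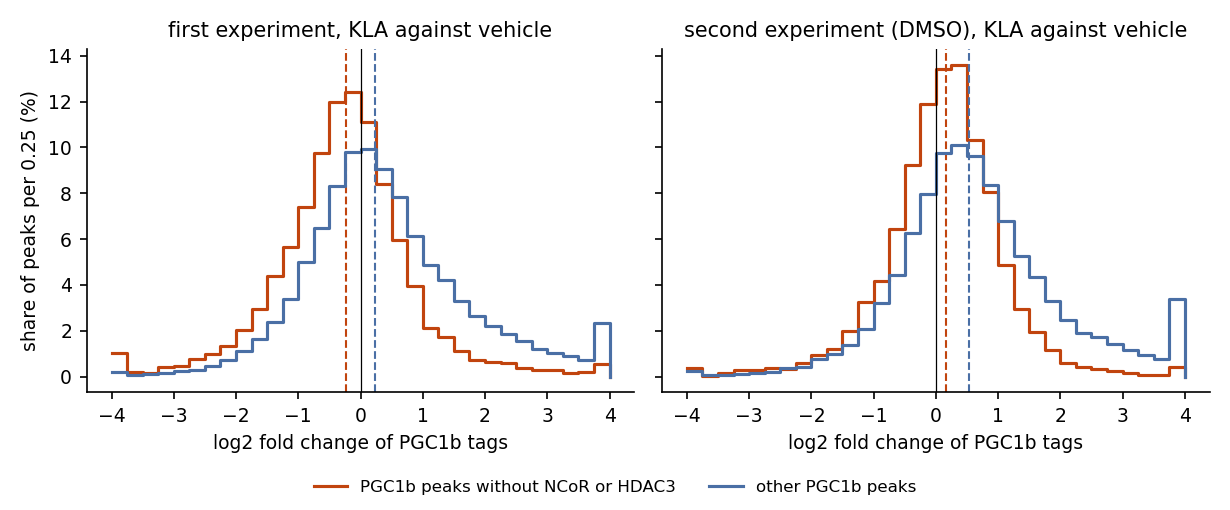
Distribution of the log2 fold change of PGC1b tags with KLA (x axis) in the first and the second PGC1b experiment, as the share of peaks per 0.25 (%), for peaks without NCoR or HDAC3 (orange) and other PGC1b peaks (blue), with dashed lines at the medians and values beyond the ends set at the ends. The orange medians (-0.24 and 0.16) lie below the blue ones (0.24 and 0.53), and the right tail is thicker in blue.

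The change with KLA went with the kind of site, and most of these contrasts also held in the other PGC1b peaks. Of 2045 peaks without NCoR or HDAC3 that were listed only with KLA, 629 rose (30.8%). Of the other peaks listed only with KLA, 53.9% rose. Peaks listed only with Veh were the largest class, 7910 (51.9%, against 30.4% of the other peaks), and 922 of them fell (11.7%). Of the other peaks listed only with Veh, 16.4% fell. The list and the test use the same libraries, so these counts are a description. Peaks listed in both conditions (5288) were the strongest, with a median of 36.2 tags, and 135 rose and 163 fell. Promoter peaks rarely rose (12 of 1060), and 92 fell (8.68%). At promoters of the other peaks 7.47% rose and 4.54% fell. Of 5499 peaks with the CTCF-type letters, 175 rose (3.18%) and 273 fell (4.96%), against 6.11% and 8.33% of the 9737 without them. In the other PGC1b peaks, 7.15% of those with the letters rose and 5.28% fell, against 22.8% and 5.99% without them. The AP-1 letters stood in 19.9% of the peaks that rose, 6.37% of those that fell and 7.48% of those not called. Of the 770 that rose, 36.9% had a p300 peak and 28.2% a p65 peak, against 13.5% and 8.23% of those not called. PU.1 stood at 21.4% of those that fell and 4.42% of those that rose. In the other peaks, p300 stood at 95.1% and p65 at 93.9% of those that rose, against 87.4% and 80.3% of those not called. PU.1 stood there at 85.3% of those that fell and 53.7% of those that rose.

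Among the 6 peaks that rose with the lowest p, one lay just upstream of Mir155hg, the host gene of the inflammatory microRNA miR-155 (chr16:84710916-84711275). It had 5.88 and 0.465 tags with Veh and 64.4 and 60.6 with KLA (log2 4.38, SE 0.58, edgeR adjusted p = 4.27e-05). An intergenic peak listed with Zc3h12c, a member of a family of RNA-degrading zinc finger proteins that restrain inflammation (chr9:52246794-52247000), had 3.53 and 2.32 tags with Veh and 52.4 and 38.3 with KLA (log2 3.93, SE 0.53). In both, the KLA libraries were far above the Veh libraries.

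Of 2 peaks listed with Ccer1, one (chr10:97689507-97689720) had 5.29 and 2.79 tags with Veh and 98.3 and 57.8 with KLA (log2 4.26, SE 0.47), and the other (chr10:97670282-97670494) rose by 4.24 on the log2 scale. A peak on the same chromosome listed with Mir3966 (chr10:97375877-97376126) was present before, with 25.9 and 20.0 tags, and reached 144 and 90.4 (log2 2.34, SE 0.33). A peak upstream of Fap, a serine protease gene (chr2:62590895-62591237), held 2 tags in both Veh libraries together and 90 with KLA, a ratio of 65.1 (95% exact interval 17.5 to 546, counting error only).

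The 6 peaks that fell with the lowest p had 33.9 to 129 tags in each Veh library and at most 33.9 with KLA. Enc1, which encodes a kelch protein (chr13:97239580-97239792), had 52.3 and 60.9 tags with Veh and 5.46 and 3.43 with KLA (log2 -3.73, SE 0.48, edgeR adjusted p = 3.36e-05). Near Rasgrp3, an activator of Ras proteins (chr17:75406541-75406776), PGC1b dropped from 62.9 and 56.2 tags to 6.55 and 9.72 (log2 -2.80, SE 0.42). The peak listed with Mxd4, a partner of MAX that opposes MYC (chr5:34210336-34210596), was the strongest of them, with 129 and 116 tags with Veh and 33.9 and 26.9 with KLA (log2 -2.03, SE 0.30).

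Ramp1, an accessory protein of the CGRP receptor (chr1:91211232-91211441), had 46.4 and 55.8 tags with Veh and 4.37 and 6.86 with KLA. Mylk4, a myosin light chain kinase (chr13:32604010-32604214), had 53.5 and 64.6 tags with Veh and 0 and 4.58 with KLA. Near Phb, which encodes the mitochondrial scaffold prohibitin (chr11:95687340-95687570), the KLA libraries held 2 tags in all and the Veh libraries 144, a ratio of 49.8 (95% exact interval 13.5 to 415). All 6 peaks had Veh values above all of their KLA values.

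Gene lists of the macrophage response and of PGC1 biology were read by the nearest gene of each peak. In a list of TLR4-induced inflammatory genes, 24 of 46 genes had a peak without NCoR or HDAC3, 19 of these 52 peaks rose and 1 fell, and 178 of 290 other peaks rose. The background was 16.4% higher over all PGC1b peaks, 5.05% over those without NCoR or HDAC3 and 22.1% over the others. Nfkb1, an NFκB subunit, had the strongest of these 52 (chr3:135731360-135731589), with 100 and 81.4 tags with Veh and 199 and 142 with KLA (log2 0.90, SE 0.26, edgeR adjusted p = 0.0183), below the 2-fold limit. Nfkbiz, a nuclear IκB protein, had 97.5 and 81.8 with Veh and 168 and 90.4 with KLA, and Ccl3, a chemokine, had 109 and 117 with Veh and 72.1 and 60.6 with KLA (log2 -0.78). In a list of interferon-stimulated genes, 13 of 27 such peaks rose and 0 fell, against 65 of 89 other peaks. Parp9, which acts in interferon signaling, rose from 22.9 and 31.6 to 72.1 and 45.8 (log2 1.08, SE 0.36, edgeR adjusted p = 0.0373), at a B2 element.

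The lists tied to PGC1 functions were read against the 5.05% higher and 7.12% lower of all peaks without NCoR or HDAC3. For oxidative phosphorylation, 42 peaks of 30 genes had no NCoR or HDAC3 peak, and 2 rose and 0 fell. They made up 35.3% of the PGC1b peaks of that list, against 33.4% of all PGC1b peaks. The strongest lay near Cox6a2, a cytochrome oxidase subunit, with 80.5 and 90.6 tags with Veh and 104 and 100 with KLA (log2 0.25, SE 0.27). For the mitochondrial ribosome, 48 peaks (44.4% of the peaks of that list, the highest share among the 11 lists) gave 2 that rose and 3 that fell. For the partners of PGC1 and regulators of mitochondria, 2 of 21 rose and 4 fell. Among them Gabpb1, a subunit of the respiratory gene activator GABP, rose from 23.5 and 41.4 to 75.4 and 71.5 (log2 1.16, SE 0.34, edgeR adjusted p = 0.0180). The cytosolic ribosome (49 peaks, 1 higher and 2 lower) and the zinc finger Zfp genes (183 peaks, 5 higher and 13 lower) were counted in the same way. The CTCF-type letters stood in 23.1% (inflammatory genes) to 44.9% (cytosolic ribosome) of the peaks of each list.

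Genes of macrophage identity and lipid handling completed the lists, read against the same 5.05% higher and 7.12% lower. In the macrophage lineage list, 51 peaks had no NCoR or HDAC3 (15.3%, against 33.4% of all PGC1b peaks), and 3 rose and 5 fell. All were listed with genes that also had other PGC1b peaks. Cx3cr1, the fractalkine receptor, had 113 and 116 tags with Veh and 112 and 96.7 with KLA, and Irf8 and Cebpb, both lineage transcription factors, also kept 90.2 to 123 tags in each library. For LXR and lipogenic genes 2 of 32 rose and 2 fell. The peak upstream of Ch25h, an enzyme that makes 25-hydroxycholesterol, was strong throughout, at 140 to 161 tags in the 4 libraries. For lysosome and V-ATPase genes 1 of 32 rose and 3 fell, among them Atp6v0d2, a proton pump subunit, from 157 and 159 to 76.5 and 64.1 (log2 -1.18, SE 0.26, edgeR adjusted p = 0.00313). For the NCoR complex and deacetylases 2 of 33 rose and 4 fell, and the Hdac9 peak dropped from 59.3 and 48.8 to 25.1 and 23.5 (log2 -1.16, SE 0.36).

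ERK inhibition gave few calls over all second-experiment peaks, at these sites and at the other PGC1b peaks (0.110% higher, 0.269% lower). With ERKi and KLA against DMSO and KLA, 0.108% of all second-experiment peaks were called higher and 0.178% lower, and of the 10070 at sites without NCoR or HDAC3, 3 rose and 3 fell (5 and 1 with TMM). At an unadjusted p under 0.05 there were 908, and the DESeq2 Wald test called 54. The 6 calls fell to 0 or 1 when DMSO Veh replicate 1, either DMSO KLA library or either ERKi library was left out, and to 3 without DMSO Veh replicate 2. A peak in an intron of Mx2, an interferon-induced GTPase (chr16:97537944-97538303), had 0.812 and 0 tags with Veh, 41.4 and 72.9 with KLA and 183 and 272 with ERKi and KLA (log2 1.97 for ERKi, SE 0.38, edgeR adjusted p = 0.0249). The peak with the lowest p among those that fell (nearest gene Mir7057, chr7:66250104-66250335) had 86.1 and 114 with Veh, 184 and 124 with KLA and 36.0 and 37.5 with ERKi (log2 -2.05, SE 0.38). In the KLA comparison, the peaks with the lowest p were in an intron of Cmpk2, an interferon-induced nucleotide kinase, which rose from 4.06 and 0 to 75 and 90.8, and in Cep85, a centrosome protein, which dropped from 67.4 and 81.6 to 1.97 and 4.47.

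Where another factor did have a peak at these sites, its KLA response was also lower than at the other PGC1b peaks. For p65, 57.0% of all 52629 peaks were called higher and 5.43% lower. Of 1412 p65 peaks at sites without NCoR or HDAC3, 460 rose (32.6%) and 233 fell (16.5%), against 55.0% and 3.44% at the others, and TMM reversed the balance to 205 higher and 635 lower. The 693 calls were 199 without KLA replicate 1 and 185 without KLA replicate 2. Median p65 tags were 14.9 and 15.8 with Veh and 19.4 and 21.9 with KLA, against 27.1 and 30.8, then 63.4 and 69.8 at the others. The promoter of Cxcr4, a chemokine receptor, lost p65, from 77.9 and 55.9 to 8.01 and 4.10 (log2 -3.44, SE 0.48, edgeR adjusted p = 0.000122).

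For p300, 42.1% of all 67998 peaks were called higher and 12.9% lower. Of 2365 at these sites, 539 (22.8%) rose and 620 (26.2%) fell, or 389 and 1009 with TMM, and the 1159 calls were 607 without KLA replicate 1 and 637 without KLA replicate 2. Median p300 tags were 17.6 and 17.1 with Veh and 16.9 and 16.8 with KLA, and 44.5, 41.4, 58.3 and 57.3 at the others. An intergenic peak 14682 bp from the start site of Acot13, a mitochondrial thioesterase (chr13:24816547-24817067), dropped from 131 and 151 to 16.9 and 19.5 tags (log2 -2.95, SE 0.24, edgeR adjusted p = 3.92e-08). At an intronic site listed with Malt1, a paracaspase of NFκB signaling, p65 rose from 0.876 and 2.80 to 218 and 231, p300 from 1.25 and 1.97 to 170 and 201, and Fosl2 from 1.41 and 3.15 to 116 and 198. That site had the lowest p among the rises of all 3 factors.

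For PU.1, 4.53% of all 50690 peaks were called higher and 21.7% lower. Of 2191 at these sites, 24 (1.10%) rose and 643 (29.3%) fell, against 6.48% and 15.8% at the others, and with TMM the split was 87 and 346. Medians dropped from 58.4 and 57.9 to 39.9 and 40.8 tags. A site upstream of Il6, the cytokine gene (chr5:29972845-29973055), held 3 PU.1 tags with Veh and 474 with KLA, or 149 and 157 tags per 10 M, a ratio of 181 (95% exact interval 61.4 to 879). In the other direction PU.1 near Gpr34, a lysophospholipid receptor (chrX:13616792-13616994), dropped from 195 and 213 to 34.0 and 45.9 (log2 -2.34, SE 0.14, edgeR adjusted p = 1.09e-33).

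ERK1 and Fosl2 had few peaks at these sites. For ERK1, 10.3% of all peaks were called higher and 2.53% lower, and of 980 here 44 rose and 41 fell (33 and 57 with TMM), with 19 calls without KLA replicate 1 and 14 without KLA replicate 2. An ERK1 peak near Ccl9, a chemokine (chr11:83571780-83572030), had 0 tags in both Veh libraries and 49.2 and 92.6 with KLA, at least 34.9-fold higher when 3 tags over the Veh group are taken as the floor. For Fosl2, 11.4% of all peaks were called higher and 4.19% lower, and of 757 here 33 rose and 91 fell (46 and 139 with TMM). The 124 Fosl2 calls became 0 without either Veh library, 289 without KLA replicate 1 and 435 without KLA replicate 2, and KLA replicate 1 was the shallowest library of the table. Fosl2 medians were 29.6 and 25.2 with Veh and 6.98 and 16.4 with KLA, against 67.7, 54.5, 46.6 and 94.7 at the others. The peak in an intron of Gpa33 (chr1:166153421-166153653), a cell surface antigen, had 53.6 and 33.6 tags with Veh and 0 in both KLA libraries, at least 18.0-fold lower on the same floor.

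H3K27ac was low at these sites. In the tables of the Pgc1b and RGFP966 experiments it was counted in windows of 1000 bp over the regions the authors chose from open chromatin, and 3250 sites without NCoR or HDAC3 (21.3%) had such a region within 500 bp, against 46.5% of the others. At the 2444 distal regions the medians in the 8 libraries of the Pgc1b table ran from 2.45 to 3.61 tags per 10 M, and at the 10435 distal regions of other PGC1b peaks from 39.0 to 83.6. At 851 proximal regions the medians ran from 26.7 to 55.0, against 115 to 190. In each library the median was lower at the sites without NCoR or HDAC3. At distal sites the difference of the medians on the log2 scale, with 1 tag added, was -4.47 in both Pgc1b_flox libraries with Veh, -4.02 and -4.01 with KLA, and -3.12 and -3.26 in Pgc1b_flox_Cre with KLA. Distal regions with the CTCF-type letters had library medians of 1.84 to 3.26, and 170 of 887 (19.2%) had 16 tags or more in a library, the limit for testing. Of 1557 without the letters, 600 (38.5%) did, with medians of 3.06 to 3.98.

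**Figure D4:**
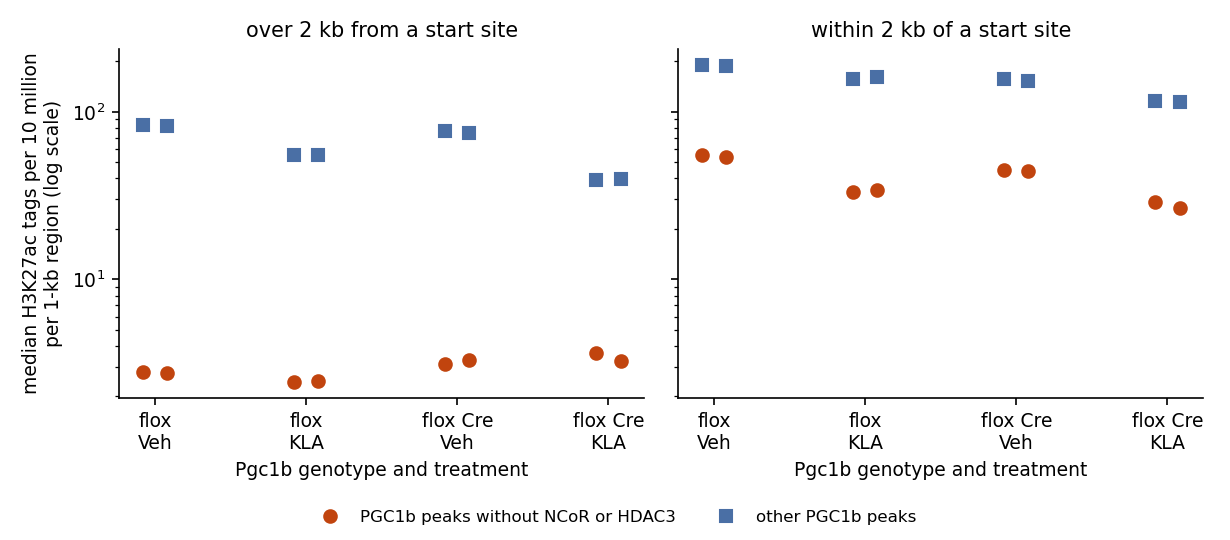
Median H3K27ac tags per 10 M in regions of 1 kb (log axis), for each of the 8 libraries of the Pgc1b experiment, at sites without NCoR or HDAC3 (orange circles) and at other PGC1b peaks (blue squares), split at 2 kb from a start site. Distal orange medians range from 2.45 to 3.61 and are higher in Pgc1b_flox_Cre than in Pgc1b_flox with KLA. The blue ones lie between 39.0 and 83.6 and are lowest in Pgc1b_flox_Cre with KLA.

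With KLA alone, H3K27ac at the tested regions more often fell than rose. In Pgc1b_flox cells 5.22% of 25197 tested regions were called higher and 25.6% lower, with a median of -0.45, and of 1495 tested regions at sites without NCoR or HDAC3 (of 3295 in all) 41 rose (2.74%) and 426 fell (28.5%). With TMM the split was 75 and 239. At the other PGC1b peaks 7.15% rose and 26.4% fell. The promoter of Hmgb2, a chromatin protein of dividing cells, dropped from 393 and 446 tags to 105 and 92.4 (log2 -2.08, SE 0.12, edgeR adjusted p = 5.35e-62). An intronic region of Ctsd, the lysosomal protease cathepsin D, dropped from 600.0 and 569 to 191 and 231, and an intergenic region listed with Adam6b from 175 and 179 to 7.35 and 14.3.

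In the other direction an intronic region of Rasgef1b, a Ras exchange factor, rose from 42.1 and 36.7 to 207 and 189 (log2 2.32, SE 0.18, edgeR adjusted p = 1.35e-34). The promoter of Ifit2, an interferon-induced antiviral gene, rose from 29.7 and 38.8 to 108 and 104, and that of Nfxl1 from 60.6 and 47.8 to 126 and 147. PGC1b at the Ifit2 promoter peak had 62.9 and 49.3 tags with Veh and 78.6 and 52.1 with KLA, which overlap.

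In the WT and NKO table, whose regions are shorter, 6.49% of 18504 tested regions were called higher with KLA in WT and 3.72% lower. Of 678 tested at sites without NCoR or HDAC3, 18 rose and 29 fell (9 and 40 with TMM), and the 47 calls were 13 without WT Veh replicate 1 and 24 without WT Veh replicate 2. The promoter of Ifi44, an interferon-induced gene, rose from 6.93 and 9.17 to 36.5 and 37.2 tags in WT (log2 2.17, SE 0.44, edgeR adjusted p = 0.000304). Zfp322a rose from 11.3 and 14.8 to 43.4 and 44.8. The first exon of Clcn7, a lysosomal chloride transporter, had 53.6 and 47.9 with Veh and 103 and 108 with KLA, a call (log2 1.06) lost with TMM (0.91). Khk, a fructose kinase, dropped from 27.1 and 25 to 3.77 and 3.45, and Fam69a from 57.4 and 53.5 to 17.6 and 22.7.

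Loss of NCoR gave few H3K27ac calls with KLA over all regions, at these sites and at the other PGC1b peaks (0.456% higher, 0.524% lower). With KLA, 0.400% of all regions were called higher in NKO than in WT and 0.389% lower, and of the 678 at sites without NCoR or HDAC3, 2 were higher and 0 lower (the same with TMM), with 74 at an unadjusted p under 0.05. The 2 calls were 4 without WT KLA replicate 1 and 1 without NKO KLA replicate 2. One was a region upstream of Cebpa, a myeloid transcription factor (chr7:35117979-35118510), where WT dropped from 85.7 and 61.1 tags to 16.3 and 13.1 and NKO from 130 and 117 to 38.8 and 49.3 (log2 difference 1.56 between genotypes with KLA, SE 0.30, edgeR adjusted p = 0.00267). It was also the region with the lowest p among those that fell with KLA in WT (log2 -2.30, SE 0.28). The other lay in the last exon of Bhlhe41, a repressor of the clock (chr6:145862868-145863271), with 40.2 and 26.2 tags in WT and 89.7 and 106 in NKO, both with KLA.

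HDAC3 inhibition changed H3K27ac at distal sites of both kinds. With RGFP966 and KLA against DMSO and KLA, 26.9% of 25045 tested regions were called higher and 9.53% lower. Of 1448 at sites without NCoR or HDAC3, 335 rose (23.1%) and 150 fell (10.4%), against 31.7% and 5.33% at the others, and TMM reversed the balance to 209 and 274. Distal and proximal regions differed. At 751 distal regions 289 rose and 4 fell (182 and 12 with TMM), with a median of 0.93 against 0.83 at distal regions of other PGC1b peaks. At 697 proximal regions 46 rose and 146 fell, with medians of -0.42 and -0.49. Within the weakest 25% of tested regions by mean level, the distal median was 0.95 at these sites and 1.13 at the others.

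The promoter of Rasgrp3, near which PGC1b fell with KLA, had 98.8 and 109 H3K27ac tags with DMSO and Veh, 7.77 and 6.73 with DMSO and KLA and 59.9 and 40.6 with RGFP966 and KLA (log2 2.77 for RGFP966, SE 0.36, edgeR adjusted p = 8.32e-13). Regions near S100a6 (13 and 11.8 with KLA, 68.5 and 67.7 with RGFP966) and Calm2 (24 and 16.8, then 90.2 and 90.8), genes of calcium-binding proteins, moved in the same way. All 3 were lower with KLA than with Veh. Promoters of Erg28, a protein of sterol synthesis (193 and 171 with KLA, 46.1 and 50.1 with RGFP966), Nfxl1 (98.4 and 71.5, then 23 and 21.7) and Vac14, a scaffold of phosphoinositide kinase (130 and 83.3, then 41.5 and 22.4), dropped.

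Deletion of Pgc1b was the last comparison. With Veh, 0.107% of 25197 regions were called higher in Pgc1b_flox_Cre than in Pgc1b_flox and 0.290% lower, and of 1495 at sites without NCoR or HDAC3, 3 were higher and 9 lower. With TMM these were 2 and 0, and the DESeq2 Wald test called 0, while 284 had an unadjusted edgeR p under 0.05. The 12 calls were 4 without Pgc1b_flox Veh replicate 1 and 5 without Pgc1b_flox_Cre Veh replicate 2. Rae1, a nuclear pore protein, had 157 and 148 promoter tags in Pgc1b_flox and 66.7 and 79.6 in Pgc1b_flox_Cre (log2 -1.06, SE 0.18), with TMM -0.85 and below the 2-fold limit. The promoter of Met, a growth factor receptor, held 2 tags in both Pgc1b_flox libraries and 26 in Pgc1b_flox_Cre, a ratio of 13.5 (95% exact interval 3.37 to 117). The calls at Diaph3, a formin (40.4 and 34.6 tags, then 16.8 and 15.3), at B4galt4, a galactosyltransferase (31.4 and 31.2, then 11.8 and 11.3), and at an intron of Gipc2 (1.68 and 2.08, then 8.11 and 11.3) were lost with TMM. The region listed with 1700044K03Rik had 10.1 and 11.1 tags, then 23.7 and 33.2.

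With KLA the log2 differences between the genotypes were less negative here than at the other PGC1b peaks, and with TMM they changed sign here. Over all 25197 regions 0.702% were called higher and 6.81% lower in Pgc1b_flox_Cre, with a median log2 difference of -0.38. At the sites without NCoR or HDAC3, 14 were higher (0.936%) and 48 lower (3.21%) of 1495, and at the others 76 (0.554%) and 1288 (9.38%) of 13727. Their medians were -0.22 and -0.44. TMM moved the median of all regions to 0.01 and reversed the balance at these sites to 45 higher and 6 lower, and it gave 222 higher and 213 lower at the others. The order of the medians held under TMM (0.17 and -0.04). At the tested distal regions (770 and 10001) the medians were -0.11 and -0.46. Levels were read over all distal regions, tested or not, which is a different set. At the 2444 distal regions without NCoR or HDAC3, most of them below the limit for testing, the median was a few tags. With KLA it was 2.45 and 2.48 in Pgc1b_flox and 3.61 and 3.26 in Pgc1b_flox_Cre, higher in both Pgc1b_flox_Cre libraries. At the 10435 other distal regions it went from 55.1 and 55.2 to 39.0 and 39.7. The part of the low level of the mark in this difference was not tested. In the 4 quartiles of mean H3K27ac, the distal medians were -0.01, -0.22, -0.28 and -0.37 at these sites (582, 138, 42 and 8 regions) and -0.17, -0.40, -0.53 and -0.60 at the others. Levels still differed within the lowest quartile, where the median was 9.48 tags at these sites and 15 at the others.

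**Figure D5:**
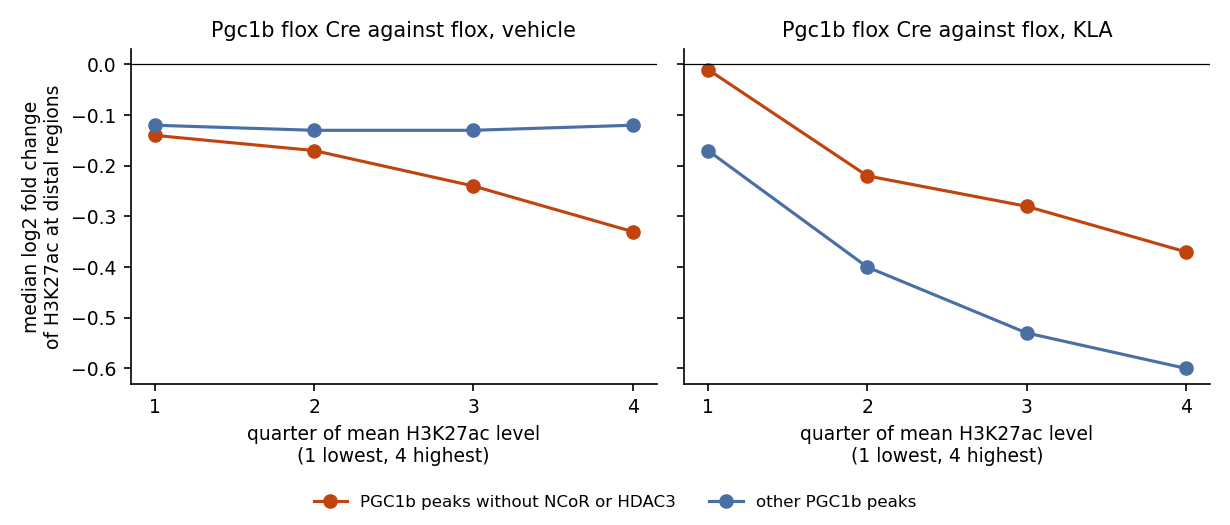
Median log2 fold change of H3K27ac between Pgc1b_flox_Cre and Pgc1b_flox at distal regions, with Veh (left) and with KLA (right), by quartile of the mean H3K27ac level (1 lowest, 4 highest; x axis), at sites without NCoR or HDAC3 (orange) and at other PGC1b peaks (blue). With KLA the orange medians (-0.01 to -0.37) lie above the blue ones (-0.17 to -0.60) in each quartile, and the top orange point rests on 8 regions.

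The promoter of Tet3, a dioxygenase that oxidizes methylated cytosine (chr6:83441155-83442155), had the lowest p among the regions that were lower with KLA. H3K27ac there was 126 and 152 in Pgc1b_flox with Veh and 103 and 110 with KLA. In Pgc1b_flox_Cre it was 142 and 136 with Veh and 38.3 and 28.0 with KLA (log2 -1.69 with KLA, SE 0.20, edgeR adjusted p = 2.64e-15). Pip5k1c, a phosphoinositide kinase, had 124 and 96.8 tags in Pgc1b_flox and 51.3 and 43.0 in Pgc1b_flox_Cre with KLA, and Commd7, a regulator of NFκB, had 224 and 217, then 114 and 104. With TMM the log2 differences of Pip5k1c (-0.84) and Commd7 (-0.62) were below the 2-fold limit. Scap, the sterol sensor that escorts SREBP, was higher in Pgc1b_flox_Cre with KLA (9.18 and 11.8, then 25.3 and 31.3), as was Sfi1, a centriole protein (41.6 and 30.4, then 79.5 and 67.1). At a region listed with Tfg the Pgc1b_flox KLA libraries held 2 tags in all and the Pgc1b_flox_Cre KLA libraries 24, a ratio of 13.3 (95% exact interval 3.31 to 116).

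The difference between the KLA responses of the genotypes was tested as an interaction. Over all regions 0.770% were called higher and 4.60% lower in Pgc1b_flox_Cre, and of 1495 at these sites 20 were higher and 15 lower (29 and 8 with TMM), against 85 and 939 of 13727 at the others. The medians were 0.02 and -0.27. The DESeq2 Wald test called 13 at these sites. The order of these medians held in each of the 15 settings tried, in which the sites without NCoR or HDAC3 were 0.26 to 0.40 above the others.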

How the data were processed

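Chromatin immunoprecipitation libraries of mouse bone marrow-derived macrophages were read as tag counts that the authors deposited per peak or region and library. The authors aligned reads to mm10 with Bowtie2, called peaks with HOMER, kept those reproducible between replicates of a condition, merged them, and counted tags without normalization, with at most 3 tags per position. Versions are not given in the sources used here. Of 15 tables, 13 with 62 libraries were used, 2 libraries per group. Input libraries and other tables are not analysed here.

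Tags were expressed per 10 M of the library total stated in each table. The mm10 build was checked on chromosome names and lengths, and sequence was read for 15236 of the 15243 peaks. Peaks or regions of another table were assigned to the nearest PGC1b peak centre within 500 bp. Each table was fitted with edgeR 4.0.16 (R 4.3.3), by the quasi-likelihood test with library totals as sizes and a minimum of 4 tags (16 for H3K27ac) in 1 library or more. A call required an adjusted p (Benjamini-Hochberg) below 0.05 with a change of over 2-fold. Standard errors are the log2 fold change divided by the square root of F. The fits were tested on simulated data: of 200 peaks changed 3-fold, 37.0% were recovered for PGC1b with KLA, 0.0% for the second PGC1b experiment, 0.5% for ERK1 and for Fosl2, and 91.5% for H3K27ac in Pgc1b_flox.

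Named peaks are the 8 strongest, the 3 strongest of each gene list, and the called peaks with the lowest p in each direction: 6 for the first PGC1b experiment, 1 for the other factor comparisons and up to 3 for H3K27ac. Low-count ratios have exact intervals that cover counting error only. Alternatives were TMM, DESeq2 1.42.0, other filters and distances, distal or strong peaks only, a replicate block and leaving out each library. The members and the lists were chosen with earlier results of these data known.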

Additional observations from a re-analysis of the deposited data

Results flagged for a closer look

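At 6 H3K27ac regions beside PGC1b peaks without NCoR or HDAC3, the response to KLA differed between Pgc1b_flox_Cre and Pgc1b_flox cells by an interaction term (edgeR's quasi-likelihood test, Benjamini-Hochberg adjustment over all 25197 regions). They are those with the lowest p in each direction.

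The response was higher in Pgc1b_flox_Cre at the promoter of Aen, a p53-induced nuclease, which went from 92.6 and 100 tags with Veh to 99.2 and 96.1 with KLA in Pgc1b_flox and from 54.3 and 66.3 to 132 and 119 in Pgc1b_flox_Cre (interaction 1.04 on the log2 scale, SE 0.25, adjusted p = 0.00057). At the promoter of Diaph3, H3K27ac went from 40.4 and 34.6 to 6.74 and 7.44 in Pgc1b_flox and from 16.8 and 15.3 to 10.1 and 20.8 in Pgc1b_flox_Cre (interaction 2.36, SE 0.61). The region listed with Tfg went from 7.29 and 8.31 to 0 and 1.24 in Pgc1b_flox and from 3.74 and 3.32 to 5.78 and 10.4 in Pgc1b_flox_Cre (interaction 4.68, SE 1.37), and its size depends on a group of 2 tags. For the interactions at Diaph3 and Tfg the DESeq2 Wald test gave no adjusted p.

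The response was lower at Tet3 (interaction -1.70, SE 0.26, adjusted p = 2.79e-09), at Pip5k1c (-1.09, SE 0.24, and with TMM -0.90, below the 2-fold limit) and at the promoter of Zfp275, which went from 52.7 and 56.8 to 52.7 and 72.6 in Pgc1b_flox and from 48.0 and 76.3 to 25.3 and 27.4 in Pgc1b_flox_Cre (interaction -1.43, SE 0.34).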

How the results depend on the processing

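Of 777 values of the 64 named regions under alternatives, 709 kept their direction and call, 68 kept their direction and lost the call, and 0 reversed. The 64 count a region once for each comparison that named it by its low p. Peaks named only as strongest or by a gene list were not checked in this way. The 64 were picked for low p in these same data, so the lack of reversals says little. Values without an adjusted p are not among the 777. The DESeq2 Wald test gave none at Met, 1700044K03Rik, Gipc2, Diaph3 and B4galt4 with Veh. It also gave none at Tfg with KLA and at Diaph3 and Tfg for the interaction. Among counts of calls at peaks without NCoR or HDAC3, those that moved by over 1.5 times are given here. The causes were not tested, except that smaller sets hold fewer peaks.

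Leaving out 1 library gave 440 to 3621 calls for PGC1b with KLA, 209 to 534 in the second experiment, 0 to 3 for ERKi, 185 to 797 for p65, 607 to 1207 for p300, 649 to 689 for PU.1, 14 to 108 for ERK1 and 0 to 435 for Fosl2. For H3K27ac it gave 13 to 54 for KLA in WT, 1 to 4 for NKO, 393 to 490 for RGFP966, 392 to 463 for KLA in Pgc1b_flox, 4 to 16 and 52 to 82 for Pgc1b_flox_Cre with Veh and with KLA, and 24 to 36 for the interaction. A lone library was assumed to vary like the other groups.

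Taking only the peaks above the median PGC1b level left 498 calls for PGC1b, 302 in the second experiment, 161 for p65, 268 for p300, 85 for PU.1, 22 for ERK1 and 38 for Fosl2. It left 14 for H3K27ac in WT, 0 for NKO, 143 for RGFP966, 148 for KLA in Pgc1b_flox, 5 and 13 for Pgc1b_flox_Cre with Veh and with KLA, and 9 for the interaction. Distal peaks alone gave 10, 1, 293, 297, 5, 40 and 18 in that order of H3K27ac comparisons.

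The DESeq2 Wald test called 54 for ERKi, 431 for PU.1, 221 for Fosl2, 271 for KLA in Pgc1b_flox, 0 and 27 for Pgc1b_flox_Cre with Veh and with KLA, and 13 for the interaction. DESeq2 size factors gave 435 for PU.1, 233 for Fosl2 and 2 for Pgc1b_flox_Cre with Veh, and TMM gave 433 for PU.1 and 2 for that comparison. With no fold minimum there were 1473 for PU.1, 712 for KLA in Pgc1b_flox, 120 and 272 for Pgc1b_flox_Cre with Veh and with KLA, and 74 for the interaction. With no filter on low tags 4 were called for NKO. A membership distance of 2000 bp gave 1 there, and one of 500 bp put 7.41% of the peaks at promoters.

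The replicate numbers showed no pairing of the samples: over 24 pairs of groups, same-numbered libraries deviated together with correlations of -0.027 to 0.026. This check cannot exclude pairing, because counting error at peaks of few tags can hide a shared deviation. With the replicate block there were 2 calls for ERKi, 446 for p65, 29 for ERK1 and 15 for Fosl2. All 15 of these Fosl2 calls were higher, and none of the 91 falls was called.

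In the simulated data few 3-fold changes were recovered for the second PGC1b experiment, ERK1 and Fosl2. In the real data the same fit called 17.6% of all peaks of the second experiment with KLA, against 0.0% recovered in the simulation. Far fewer peaks were changed in the simulation than were called in the real data, so it does not give the power of these fits. Whether low counts of calls there limit the change was not tested.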
